A study of Homo sapiens with 6 samples.

Results

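The genes described here are 92 of the 11363 genes listed for the human monocytic leukaemia line NOMO-1, taken because they were lower after knockout of mesothelin (MSLN) and lie outside chromosomes 15 and Y. They are what was left of the lower genes once several well-known families and genes had been set aside. A gene was included when its mean level in WT libraries plus 1 was at least 2 times its mean level in MSLN-KO libraries plus 1, both in CPM, reads per gene scaled to library size. Of the 11363 genes, 170 reached this ratio, which is 1.5%. Of these, 42 lie on chromosome 15, 1 has no position in the annotation used, and 35 were dropped by symbol, among them MSLN itself, 7 solute carriers and well-known genes such as MPO, TFRC and S100A8. The direction and the size of the difference between the groups are therefore how the genes were chosen, and they are given below as a description with no test. In short, the genes were selected on the MSLN-KO and WT group means themselves.

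RNA from 6 libraries of NOMO-1 was sequenced, 3 from cells labelled MSLN-KO and 3 from cells labelled WT. NOMO-1 is an established line of acute myeloid leukaemia with monocytic features, and mesothelin is a surface protein of mesothelial cells that some leukaemias also carry. All libraries come from the same line with no other genotype or treatment in the labels, which do not give how the knockout was made, whether it is 1 clone, or whether libraries of a group came from separate cultures. Spread and p-values then measure only the difference between these libraries, which may be technical.

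Monocytes sense microbes and dying cells through surface lectins, complement and scavenger receptors, take material up and break it down in lysosomes, and recycle the iron of haem. Of the 92 genes, 13 were placed by hand with innate receptors, phagocytosis and lysosomes and 5 with haem, iron and redox, and whether that is more than among other genes was not tested. Others make cell junctions, matrix and cytoskeleton, which are better known from epithelia, connective tissue and neurons. In bulk RNA, fewer cells of a type and less RNA per cell cannot be told apart.

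Taking the common step of the CPM values in a library as 1 read, the libraries held an estimated 23665824 to 30804446 reads in the listed genes. MSLN itself had 45.7, 46.9 and 45.3 CPM in MSLN-KO libraries, against 153, 123 and 106 CPM in WT libraries. The MSLN-KO mean was 36.1% of the WT mean, so MSLN RNA was lower in every MSLN-KO library and was still read in each of them. Of 22 monocyte and macrophage markers 17 were listed, LYZ and CD14 among them, and their summed level was 10174 to 11019 CPM in MSLN-KO libraries and 19693 to 21203 CPM in WT libraries. Of 21 granulocyte markers 14 were listed, with a sum of 2114 to 2323 CPM in MSLN-KO and 2815 to 3265 CPM in WT libraries. Both sums hold genes with the ratio that chose the set: LYZ and CD14, which are in it, with CD163, C1QC and S100A8 in the first, and MPO, ELANE and MMP8 in the second. LYZ alone averaged 6081 CPM in MSLN-KO and 14540 CPM in WT libraries. Without these genes, a split made after seeing the data that takes away those with the largest ratios, the other 12 monocyte markers summed to 4033 to 4297 CPM in MSLN-KO and 4802 to 5511 CPM in WT libraries, and the other 11 granulocyte markers to 2020 to 2200 CPM in MSLN-KO and 1992 to 2329 CPM in WT libraries. The first of these remaining sums did not overlap between the groups and the second did. S100A9 just missed the ratio (1.99), and without it the remaining monocyte sums overlap too. VCAN, the highest of the genes then left, had 1937, 2186 and 2269 CPM in MSLN-KO and 1737, 2240 and 2114 CPM in WT libraries. Without both S100A9 and VCAN the sums do not overlap and are lower in MSLN-KO. Whether these sums overlap thus depends on S100A9 and VCAN. S100A9 averaged 725 ± 36.8 CPM in MSLN-KO and 1446 ± 191 CPM in WT libraries (SD, n = 3 each). CD33, FCGR1A and VCAN had higher means in MSLN-KO (74.7, 59.4 and 2130 CPM) than in WT libraries (56.7, 34.2 and 2030 CPM). The rest of the 12 had lower means in MSLN-KO. Among the 11 granulocyte markers, PRG2, an eosinophil granule protein, averaged 22.1 ± 3.60 CPM in MSLN-KO and 1.07 ± 0.321 CPM in WT libraries. MS4A3, a marker of granulocyte-monocyte progenitors, averaged 109 ± 5.51 CPM in MSLN-KO and 1.60 ± 0.810 CPM in WT libraries (SD, n = 3 each). Both were named after their values were seen. AZU1, CEBPA, GFI1 and PRTN3 also had higher means in MSLN-KO, while CEBPE, CSF3R, CTSG, CXCR2 and MMP9 had lower means there. Of 16 epithelial and mesothelial markers only KRT18 was listed, at 7.07 to 9.05 CPM in MSLN-KO and 7.97 to 9.71 CPM in WT libraries. Of 17 T and NK cell markers GZMA, NCAM1 and NKG7 were listed, with a sum of 70.7 to 76.2 CPM in MSLN-KO and 101 to 126 CPM in WT libraries. Of 14 stromal and endothelial markers ACTA2 and PECAM1 were listed, with a sum of 397 to 407 CPM in MSLN-KO and 525 to 567 CPM in WT libraries. This sum was mostly PECAM1, which averaged 383 CPM in MSLN-KO and 518 CPM in WT libraries, beside 19.7 and 31.0 CPM for ACTA2. The KRT18 ranges overlap and the last 2 sums do not. NCAM1 is in the set, and without it the sum of GZMA and NKG7 was 59.6 to 65.3 CPM in MSLN-KO and 77.3 to 101 CPM in WT libraries. Of 13 B cell markers only CD79B, dropped from the set by its symbol, was listed, at 3.65 to 4.31 CPM in MSLN-KO and 13 to 15.3 CPM in WT libraries. Of 16 erythroid and megakaryocytic markers EPOR and ITGA2B were listed, and their sum was higher in MSLN-KO, at 22.5 to 24 CPM, against 14.1 to 14.9 CPM in WT libraries. All genes in the table are at 4.9 CPM or above in 3 libraries or more, and the levels of the markers that it leaves out are not known. The part of these marker differences in the values below was not tested.

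The promoters of 4 immune genes are shown first. GIMAP4 and GIMAP6 lie close together and belong to 1 family, C3AR1 lies close to CLEC4A of the set, and CD14 marks monocytes, and each window was picked because it holds a match described below it. Each is the 250 bases before the transcription start from the RefSeq table, on the strand of the gene and with positions on GRCh38.p14. GIMAP4 is at chr7:150567140-150567389 on the plus strand, and its neighbour GIMAP6 is at chr7:150632386-150632635, C3AR1 at chr12:8066360-8066609 and CD14 at chr5:140633176-140633425, all 3 on the minus strand. Capitals mark a match to the PU.1 letters GAGGAAGT on the other strand in GIMAP4 and to the AP-1 letters TGANTCA, which read alike on both strands, in the others.
GIMAP4: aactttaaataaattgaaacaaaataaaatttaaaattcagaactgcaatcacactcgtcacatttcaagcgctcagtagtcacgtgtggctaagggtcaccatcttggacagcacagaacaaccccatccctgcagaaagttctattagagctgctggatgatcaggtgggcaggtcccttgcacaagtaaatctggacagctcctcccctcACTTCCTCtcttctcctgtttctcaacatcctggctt
GIMAP6: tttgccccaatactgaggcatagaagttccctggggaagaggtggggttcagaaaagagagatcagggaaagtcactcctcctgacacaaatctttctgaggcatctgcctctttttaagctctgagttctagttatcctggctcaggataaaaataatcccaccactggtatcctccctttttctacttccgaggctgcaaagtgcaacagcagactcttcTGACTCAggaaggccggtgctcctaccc
C3AR1: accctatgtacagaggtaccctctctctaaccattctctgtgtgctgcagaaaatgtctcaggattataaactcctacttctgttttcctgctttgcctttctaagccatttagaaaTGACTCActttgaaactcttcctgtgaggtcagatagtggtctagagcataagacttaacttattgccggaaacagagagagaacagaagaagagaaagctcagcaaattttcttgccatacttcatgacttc
CD14: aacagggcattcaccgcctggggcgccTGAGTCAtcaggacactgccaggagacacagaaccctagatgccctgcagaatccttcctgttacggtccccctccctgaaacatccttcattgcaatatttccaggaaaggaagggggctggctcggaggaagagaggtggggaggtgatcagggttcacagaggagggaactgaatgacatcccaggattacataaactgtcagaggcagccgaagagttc
The GIMAP4 match ends 29 bases before the RefSeq start and the GIMAP6 match 21 bases before it. The matches lie farther away in C3AR1 (126 bases) and CD14 (216 bases). GENCODE v29, used for the other positions here, puts the starts of GIMAP4, GIMAP6 and CD14 at 150567277, 150632648 and 140633701. By those starts the matches of these genes lie inside the gene, and only the C3AR1 match lies before the start in both annotations. Over all 8990 listed genes with such a window, TGANTCA occurred in 3.60% and GAGGAAGT in 2.41% of the 250-base windows, counting either strand. A window was held for 65 of the 92 genes, which is under 80%, so a comparison of motifs or base composition between the set and all genes is void and none is given. A match is a description of the letters and not a binding site.

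All 92 genes had every MSLN-KO library below every WT library, which holds for 28.1% of all listed genes. Since the group means chose them, nothing is read from that count. The level left in MSLN-KO ran from 7.15% of the WT mean in FAM163A to 48.5% in BLVRA, with a median of 36.0%. For 24 genes the ratio was 3 or more. Of the 92, 33 met the level of 4.9 CPM that all listed genes share through their WT libraries alone, with all 3 MSLN-KO libraries below it. The other 59 had at least 1 MSLN-KO library at or above it. The lowest depth behind a value was an estimated 9 reads, by the same step, for FAM163A in MSLN-KO replicate 3. CPM is not divided by gene length, so levels are compared below between libraries and not between genes.

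**Figure D1:**
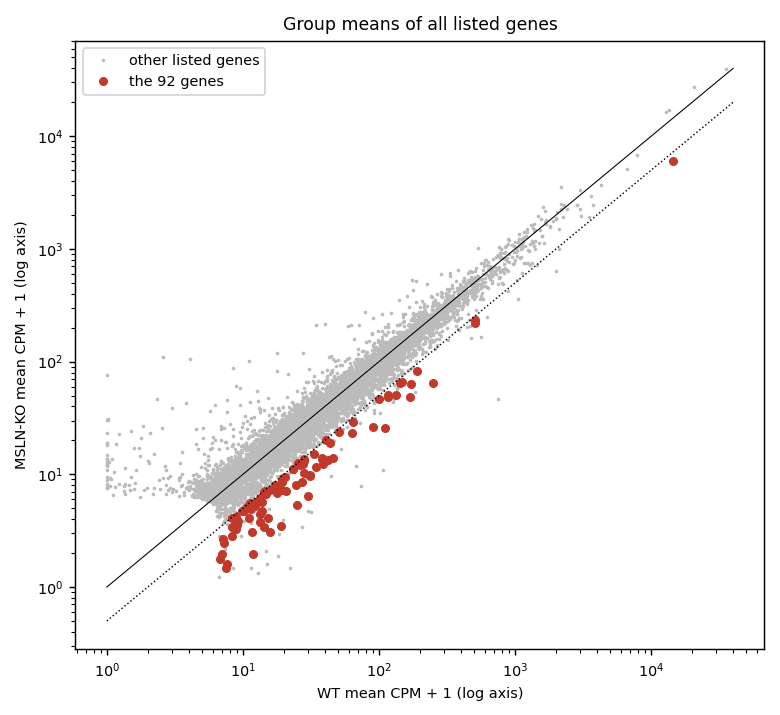
Mean CPM plus 1 of each listed gene in WT libraries (x axis, log) and in MSLN-KO libraries (y axis, log), with grey points for other listed genes and red points for the 92 genes. The solid line marks equal means and the dotted line a ratio of 2, below which all 92 genes lie; grey points below it are genes on chromosome 15, without a position or dropped by symbol.

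Just inside the limit were ENSG00000265798 and BLVRA with ratios of 2.01 and NCAM1 and CALN1 with 2.03. Just outside were PLXNA2, which fell short of the limit by less than rounding shows (2.00), MNDA with 1.99, and SH3PXD2A and IGFBP4 with 1.98. MNDA, a nuclear antigen of myeloid cells, averaged 129 ± 8.25 CPM in MSLN-KO and 257 ± 11.4 CPM in WT libraries (SD, n = 3 each). The gene with no position, ENSG00000289381, had 27, 27.6 and 27.9 CPM in MSLN-KO libraries, against 69.5, 72.1 and 74.6 CPM in WT libraries, and is counted apart.

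Of the set, 13 genes are innate receptors, genes of the uptake of dying cells, and lysosomal genes, with between 21.4% and 45.9% (median 32.9%) of the WT mean left in MSLN-KO. LYZ, the bacteria-digesting enzyme lysozyme, had 5894, 5899 and 6450.2 CPM in MSLN-KO libraries, against 14306, 14414 and 14901 CPM in WT libraries. Its libraries agreed closely within each group, and 41.8% of the WT mean was left. RNASE1, a secreted ribonuclease, had 2.64, 3.69 and 2.86 CPM in MSLN-KO libraries, against 12.6, 14.8 and 15.5 CPM in WT libraries. LGMN, the lysosomal asparagine endopeptidase legumain, had 2.76, 3.05 and 2.48 CPM in MSLN-KO and 8.89, 12.7 and 15.2 CPM in WT libraries. These are the lowest shares of the 13 genes, 21.4% for RNASE1 and 22.5% for LGMN, and for both the lowest WT library was replicate 1 and the highest replicate 3. RAB7B, a small GTPase of late endosomes, had 51.2, 52.5 and 46.5 CPM in MSLN-KO, against 113, 108 and 125 CPM in WT libraries. DRAM1, a lysosomal membrane protein induced by p53 that promotes autophagy, had 45.4, 43 and 48.6 CPM in MSLN-KO, against 91.9, 101 and 105 CPM in WT libraries. The shares left were 43.4% for RAB7B and 45.9% for DRAM1, and for both the gap between the groups was wider than the range within either.

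The receptors in this group had low CPM, and 6 of the 13 genes had a WT mean under 10 CPM. CD14, the co-receptor for bacterial lipopolysaccharide whose promoter is shown above, averaged 4.21 ± 0.849 CPM in MSLN-KO and 11.3 ± 1.97 CPM in WT libraries (SD, n = 3 each). C3AR1, the receptor for the complement fragment C3a, averaged 2.40 ± 0.231 CPM in MSLN-KO and 7.42 ± 1.33 CPM in WT libraries. CMKLR1, the receptor for the attractant chemerin, averaged 2.36 ± 0.394 CPM in MSLN-KO and 7.70 ± 1.10 CPM in WT libraries. These surface receptors kept between 30.7% and 37.1% of the WT mean. Among the lectins, CLEC4A, an inhibitory receptor, averaged 2.41 ± 0.691 CPM in MSLN-KO and 7.31 ± 0.710 CPM in WT libraries. CLEC7A, the fungal sugar receptor dectin-1, averaged 4.09 ± 0.674 CPM in MSLN-KO and 9.69 ± 1.73 CPM in WT libraries. COLEC12, a scavenger receptor with a lectin domain, averaged 2.25 ± 0.537 CPM in MSLN-KO and 7.94 ± 0.686 CPM in WT libraries. AXL and MERTK are sister receptor tyrosine kinases through which macrophages bind dying cells. AXL averaged 1.83 ± 0.510 CPM in MSLN-KO and 7.33 ± 1.51 CPM in WT libraries, 25% of WT, and MERTK averaged 8.45 ± 1.08 CPM in MSLN-KO and 19.5 ± 4.48 CPM in WT libraries, 43.4% of WT.

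The other C-type lectins and galectins were mixed. Of 13 listed genes outside the set, 6 were called lower and 4 higher in MSLN-KO, where a call is an adjusted p under 0.05 in limma with Benjamini-Hochberg adjustment over all listed genes. Over all listed genes 23.3% were called lower and 22.4% higher, so 45.7% were called. LGALS3, a galectin of macrophages, fell by 0.81 on the log2 scale to 34.6 ± 1.10 CPM in MSLN-KO, against 61.6 ± 7.56 CPM in WT libraries (limma adjusted p = 4.3e-06). CLEC2B fell by 0.63 (adjusted p = 6.3e-06) and MRC2, an uptake receptor for collagen, rose by 0.60 (adjusted p = 6.9e-05, limma). The list's median log2 change outside the set was -0.20, beside 0.01 over all listed genes. Of the 13 other secreted ribonucleases and antimicrobial proteins, 7 were called lower and 5 higher, with a median of -0.16. The widest changes among them went both ways: PRG2, eosinophil major basic protein, rose by 3.47 and DEFB1, an epithelial defensin dropped from the set by its symbol, fell by 3.29, while CHI3L1, a chitinase-like secreted protein, rose by 0.85 (limma adjusted p = 6.9e-10, 1.2e-09 and 7.5e-06 in that order).

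A further 5 genes handle haem, iron or oxidised protein, with between 18.1% and 48.5% (median 29.9%) of the WT mean left in MSLN-KO. STEAP4, a membrane reductase of iron and copper, had 4.62, 4.11 and 4.40 CPM in MSLN-KO libraries, against 26.4, 26.5 and 19.5 CPM in WT libraries. HP, haptoglobin, which captures free haemoglobin, had 6.60, 6.25 and 8.32 CPM in MSLN-KO libraries, against 25.9, 20 and 24.9 CPM in WT libraries. For both genes the gap between the groups was wider than the range within either. HMOX1, which opens the haem ring to biliverdin and frees its iron, averaged 1.47 ± 0.0995 CPM in MSLN-KO and 6.26 ± 1.16 CPM in WT libraries (SD, n = 3 each). BLVRA, which reduces biliverdin to bilirubin in the next step, averaged 19.3 ± 1.58 CPM in MSLN-KO and 39.8 ± 2.19 CPM in WT libraries. The genes for capture of haemoglobin, opening of haem and reduction of biliverdin are thus all in the set, with 29.9%, 23.5% and 48.5% of the WT mean left in HP, HMOX1 and BLVRA. MSRB3, a methionine sulfoxide reductase, averaged 6.33 ± 0.347 CPM in MSLN-KO and 18.4 ± 2.94 CPM in WT libraries. HP overlaps the listed gene TXNL4B, which was at 74.5% of WT, and the strand setting of the counting is not given in the sources used here, so reads of the overlap could belong to either.

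Of 18 other listed genes of iron handling, 5 were called lower and 0 higher by limma, with a median log2 change of -0.08. Over all listed genes 23.3% were called lower and 22.4% higher. At an unadjusted limma p under 0.05 the counts were 7 lower and 1 higher. The share of all listed genes at that limit was not counted, so nothing is read from these 2 counts. TFRC, the receptor that takes up iron-loaded transferrin, fell by 1.54 on the log2 scale, SLC40A1, the iron exporter ferroportin, by 1.00, and NCOA4, which carries ferritin to lysosomes, by 0.85 (limma adjusted p = 1.2e-09, 4.2e-08 and 5.1e-08 in that order). TFRC and SLC40A1 reached the ratio of 2 and were dropped from the set by their symbols.

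Another 3 genes carry the name of annexins, proteins that bind membrane lipids when calcium rises. ANXA8L1 had 2.45, 1.85 and 1.95 CPM in MSLN-KO libraries, against 12.4, 13.2 and 18.7 CPM in WT libraries. ANXA8 had 2.52, 2.22 and 2.45 CPM in MSLN-KO libraries, against 12.8, 11.3 and 16.1 CPM in WT libraries. ANXA8 and ANXA8L1 are near-identical copies on chromosome 10, so reads could be split between them and the 2 values are not independent. For both the highest WT library was replicate 3, and 14.1% and 17.9% of the WT mean were left in ANXA8L1 and ANXA8. ANXA2P2, on chromosome 9, is a processed pseudogene of ANXA2 and averaged 2.33 ± 0.351 CPM in MSLN-KO and 7.68 ± 1.06 CPM in WT libraries (SD, n = 3 each). Its parent ANXA2 lies on chromosome 15 and averaged 164 ± 5.26 CPM in MSLN-KO and 565 ± 50.2 CPM in WT libraries. The shares left were 30.4% for ANXA2P2 and 29% for ANXA2, and reads of the parent counted to the copy cannot be told apart from its own.

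**Figure D2:**
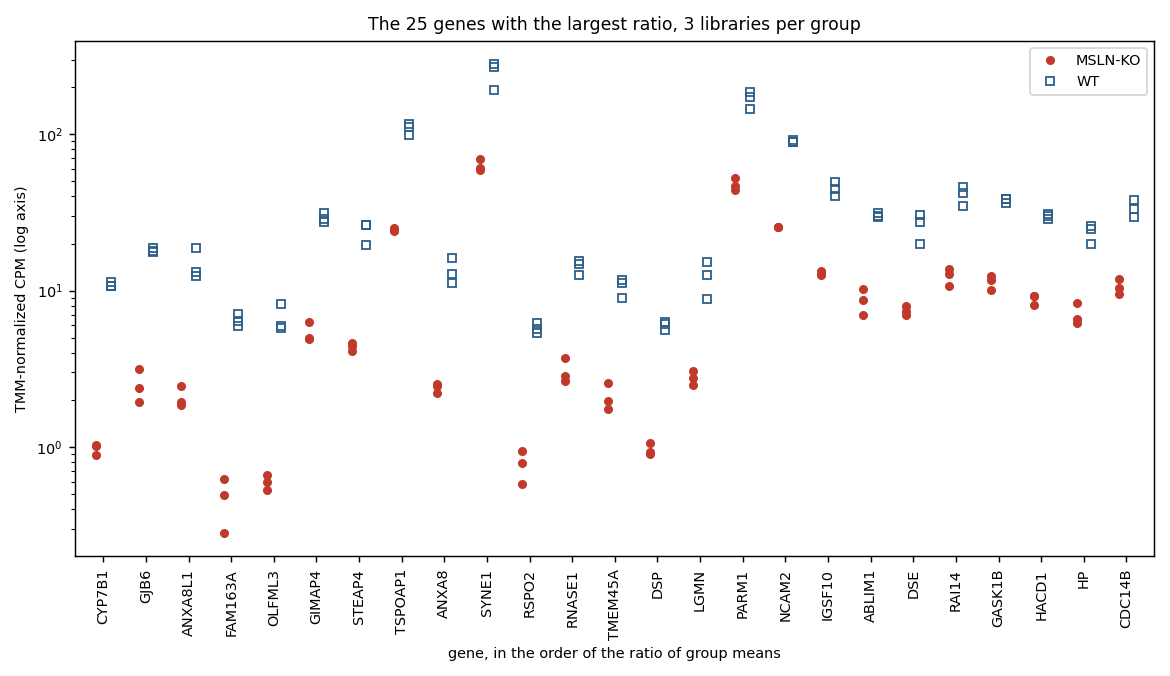
TMM-normalized CPM (y axis, log) of the 25 genes with the largest ratio, in order of the ratio (x axis), with filled circles for the 3 MSLN-KO libraries left of open squares for the 3 WT libraries. No circle reaches the lowest square of its gene, from CYP7B1 with 9.0% of the WT mean left to CDC14B with 31.5%.

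A group of 7 genes encodes enzymes of lipids, sugars and small molecules, with between 9.0% and 42.8% (median 37.2%) of the WT mean left in MSLN-KO. CYP7B1, which hydroxylates oxysterols and makes from one of them the ligand of the receptor GPR183, had the largest ratio of the whole set, 6.01. It had 0.893, 1.02 and 1.04 CPM in MSLN-KO libraries, against 10.6, 11.3 and 10.8 CPM in WT libraries. GPR183, which guides immune cells along that oxysterol, averaged 12.7 ± 1.55 CPM in MSLN-KO and 27.2 ± 2.73 CPM in WT libraries (SD, n = 3 each). The enzyme kept 9.0% and the receptor 46.6% of the WT mean. HACD1, a dehydratase in the elongation of very long fatty acids, had 9.24, 8.14 and 9.30 CPM in MSLN-KO libraries, against 28.9, 29.8 and 31 CPM in WT libraries. HPGD, the main inactivating enzyme of prostaglandins, had 49.5, 49.3 and 50.7 CPM in MSLN-KO libraries, against 139.6, 128 and 132 CPM in WT libraries. ACAT2, the cytosolic thiolase that begins the mevalonate route, had 84.1, 85.3 and 73.9 CPM in MSLN-KO libraries, against 174, 186 and 209 CPM in WT libraries. HPGD varied little within either group, while the WT libraries of ACAT2 were spread more widely, with replicate 1 lowest and replicate 3 highest. ACAT2 overlaps the chaperonin gene TCP1, which was called lower at 87.3% of WT. GLT1D1, a glycosyltransferase by its sequence, averaged 9.32 ± 1.28 CPM in MSLN-KO and 27 ± 1.92 CPM in WT libraries. SERINC2, of a family of membrane proteins linked to serine-derived lipids, averaged 18 ± 2.33 CPM in MSLN-KO and 42.4 ± 8.46 CPM in WT libraries. CMBL, a small hydrolase that activates some prodrugs, averaged 3.92 ± 0.513 CPM in MSLN-KO and 10.5 ± 0.937 CPM in WT libraries. The last 3 kept between 34.5% and 42.4% of the WT mean.

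Another 8 genes are immune GTPases, G protein-coupled receptors and genes of ions and cyclic nucleotides, with between 18.4% and 46.6% (median 43%) of the WT mean left in MSLN-KO. GIMAP4 and GIMAP6 belong to a cluster of GTPases known from lymphocyte survival. GIMAP4 had 4.89, 4.97 and 6.28 CPM in MSLN-KO libraries, against 28.8, 27.7 and 31.2 CPM in WT libraries. GIMAP6 averaged 5.16 ± 1.13 CPM in MSLN-KO and 12.4 ± 0.951 CPM in WT libraries (SD, n = 3 each). GIMAP4 stood well apart from the other 7 genes of this group, which kept between 41.7% and 46.6% of the WT mean. GPR141, a receptor with no known ligand, had 11, 11 and 11.8 CPM in MSLN-KO libraries, against 25, 27.6 and 27.3 CPM in WT libraries. LPAR6, a receptor for lysophosphatidic acid, averaged 23 ± 1.53 CPM in MSLN-KO and 49.6 ± 6.06 CPM in WT libraries. LPAR6 overlaps RB1 and GPR183 overlaps UBAC2, and neither of the overlapping genes was called, with 94.8% of WT for RB1 and 93.7% for UBAC2. GPRASP2, which binds and sorts such receptors, averaged 7.04 ± 1.06 CPM in MSLN-KO and 16.1 ± 2.0 CPM in WT libraries. KCNJ2, an inward rectifier potassium channel, averaged 8.23 ± 0.753 CPM in MSLN-KO and 18.7 ± 2.43 CPM in WT libraries. PDE1C, a calmodulin-dependent phosphodiesterase, averaged 3.77 ± 0.254 CPM in MSLN-KO and 8.92 ± 0.501 CPM in WT libraries. Of 38 other listed G protein-coupled receptors and their regulators, 15 were called lower and 12 higher, with a median log2 change of -0.08. The shares over all listed genes were 23.3% lower and 22.4% higher. The widest changes among these receptors were rises. F2R, a thrombin receptor, averaged 7.03 ± 0.723 CPM in MSLN-KO and 0.446 ± 0.0382 CPM in WT libraries (limma log2 change 2.47, adjusted p = 5.5e-09). F2RL3, another thrombin receptor, rose by 2.31 and the adhesion receptor ADGRG5 by 1.82 (limma adjusted p = 2.6e-08 and 9.2e-07).

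In the set, 7 genes are receptors for growth factors and hormones or act just behind them, with between 36.1% and 45.5% (median 40.7%) of the WT mean left in MSLN-KO. PRLR, the prolactin receptor, had 211, 209 and 238 CPM in MSLN-KO libraries, against 506, 560.0 and 461 CPM in WT libraries. INPP4B, a phosphatase that removes a product of phosphoinositide kinases, had 23.5, 23.8 and 20.1 CPM in MSLN-KO libraries, against 54.3, 63 and 69.1 CPM in WT libraries. For both genes the WT libraries spread more widely than the MSLN-KO libraries without reaching them. FLT1, a receptor for vascular endothelial growth factors, averaged 7.47 ± 1.39 CPM in MSLN-KO and 18.4 ± 5.45 CPM in WT libraries (SD, n = 3 each). NRP1, a co-receptor for the same factors and for semaphorins, averaged 10.1 ± 0.342 CPM in MSLN-KO and 22.2 ± 4.49 CPM in WT libraries. KL, klotho, the co-receptor of a phosphate-regulating hormone, averaged 3.70 ± 0.156 CPM in MSLN-KO and 9.28 ± 0.192 CPM in WT libraries. The spread of FLT1 in WT came from replicate 2, at 24.5 CPM beside 14.2 CPM in replicate 1 and 16.4 CPM in replicate 3. PTPRO, a receptor tyrosine phosphatase, averaged 7.80 ± 0.0967 CPM in MSLN-KO and 18.3 ± 1.59 CPM in WT libraries. SH2D4A, an adaptor with a phosphotyrosine-binding domain, averaged 4.78 ± 0.355 CPM in MSLN-KO and 12.2 ± 1.13 CPM in WT libraries. Of 13 other listed receptor tyrosine kinases, 6 were called lower and 3 higher, with a median of -0.10. The shares over all listed genes were 23.3% lower and 22.4% higher. IGF1R, on chromosome 15, fell by 0.88 and KIT by 0.67, while FGFR1 rose by 0.60 (limma adjusted p = 6.3e-06, 4.9e-06 and 0.00114 in that order). Of 34 other phosphatases of tyrosine and of dual specificity, 6 were called lower and 10 higher, with a median of 0.02, and PTPN14 rose most, by 1.56 (limma adjusted p = 2.1e-07).

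A group of 9 genes encodes junction and adhesion proteins, with between 13.8% and 47.3% (median 41.5%) of the WT mean left in MSLN-KO. GJB6, the gap junction subunit connexin 30, had 1.94, 2.37 and 3.14 CPM in MSLN-KO libraries, against 18.6, 17.8 and 17.7 CPM in WT libraries. DSP, desmoplakin, which ties desmosomes to intermediate filaments, had 0.932, 0.904 and 1.07 CPM in MSLN-KO libraries, against 6.12, 6.35 and 5.60 CPM in WT libraries. With 13.8% and 16.1% of the WT mean left, GJB6 and DSP stood apart from the other 7 genes. NCAM2, a neural adhesion molecule, had 25.4, 25.7 and 25.4 CPM in MSLN-KO libraries, against 89, 91.6 and 89.6 CPM in WT libraries. CLSTN2, a calsyntenin with cadherin domains known from synapses, had 48.6, 51.8 and 42.5 CPM in MSLN-KO libraries, against 121, 122 and 101 CPM in WT libraries. CDHR1, a cadherin of photoreceptors, had 65.7, 64.7 and 61.6 CPM in MSLN-KO libraries, against 124, 145 and 159 CPM in WT libraries. NCAM2 was almost the same in the libraries of each group, and CDHR1 varied more in WT, where replicate 1 was the lowest. DSG2, a desmosomal cadherin, averaged 6.08 ± 0.446 CPM in MSLN-KO and 13.6 ± 0.941 CPM in WT libraries (SD, n = 3 each). CTNND1, the catenin p120 that holds cadherins at the membrane, averaged 12.1 ± 2.0 CPM in MSLN-KO and 27.3 ± 5.21 CPM in WT libraries. PTPRF, a receptor phosphatase found at cell contacts, averaged 2.55 ± 0.270 CPM in MSLN-KO and 8.0 ± 0.245 CPM in WT libraries. CTNND1 had 1 WT library, replicate 2 at 21.2 CPM, well below the other 2 and still above all MSLN-KO libraries. NCAM1, the antigen CD56 that some myeloid leukaemias carry, kept 47.3% of the WT mean and lies just inside the limit.

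Of 16 other listed cadherins and junction proteins, 12 were called lower and 2 higher, with a median log2 change of -0.32. The shares over all listed genes were 23.3% lower and 22.4% higher, with a median of 0.01. PERP, a membrane protein of desmosomes, fell by 0.76 on the log2 scale to 7.97 ± 0.487 CPM in MSLN-KO, against 14.2 ± 0.394 CPM in WT libraries (limma adjusted p = 1.3e-05). JUP, plakoglobin, which joins desmosomal cadherins to desmoplakin, fell by 0.66 (limma adjusted p = 8.8e-05). NECTIN1, an adhesion molecule of adherens junctions, had the widest change of the list and rose by 0.82 (limma adjusted p = 1.3e-05). Of 27 other adhesion molecules of the immunoglobulin superfamily and selectins, 10 were called lower and 4 higher, with a median of -0.10. ICAM4 rose by 0.96 on the log2 scale and IGSF3 fell by 0.86 (limma adjusted p = 6.0e-05 for ICAM4 and 2.5e-06 for IGSF3).

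A further 9 genes are secreted, shape the matrix or modify its sugars, with between 8.94% and 42.1% (median 28.7%) of the WT mean left in MSLN-KO. OLFML3, a secreted olfactomedin-like protein, had 0.660, 0.527 and 0.597 CPM in MSLN-KO libraries, against 5.75, 5.96 and 8.26 CPM in WT libraries. RSPO2, a secreted amplifier of Wnt signals, had 0.583, 0.942 and 0.785 CPM in MSLN-KO libraries, against 6.20, 5.65 and 5.35 CPM in WT libraries. Both were under 1 CPM in every MSLN-KO library. IGSF10, a large secreted protein with immunoglobulin domains, had 12.7, 13.3 and 12.6 CPM in MSLN-KO libraries, against 44.3, 49.7 and 40.6 CPM in WT libraries. DSE, the epimerase that turns chondroitin into dermatan sulfate, had 7.42, 7.01 and 7.98 CPM in MSLN-KO libraries, against 19.9, 27.6 and 30.7 CPM in WT libraries. IGSF10 and DSE left nearly the same share, 28.7% and 28.6%, but DSE had 1 WT library, replicate 1, well below the other 2. PAPSS2, which makes the sulfate donor used on such sugars, averaged 1.65 ± 0.0942 CPM in MSLN-KO and 6.16 ± 0.355 CPM in WT libraries (SD, n = 3 each). HPSE, heparanase, which cuts heparan sulfate, averaged 6.53 ± 0.450 CPM in MSLN-KO and 17.5 ± 5.19 CPM in WT libraries. FBLN1, fibulin, a protein of basement membranes and elastic fibres, averaged 2.41 ± 0.642 CPM in MSLN-KO and 7.61 ± 1.51 CPM in WT libraries. The sugar-modifying enzymes DSE, PAPSS2 and HPSE thus kept between 26.7% and 37.2% of the WT mean. EMILIN1, a glycoprotein of elastic fibres, averaged 5.75 ± 0.499 CPM in MSLN-KO and 13.7 ± 1.18 CPM in WT libraries, and OLFML2A, a relative of OLFML3, 12.7 ± 0.862 CPM in MSLN-KO and 36.8 ± 2.72 CPM in WT libraries. Of 34 other listed matrix proteins and proteoglycans, 11 were called lower and 10 higher, with a median of -0.05. The shares over all listed genes were 23.3% lower and 22.4% higher. CSPG4, a proteoglycan encoded on chromosome 15, rose by 3.05 and AGRN, agrin, by 1.64, while MATN2, a matrilin, fell by 0.97 (limma adjusted p = 2.0e-09, 1.7e-07 and 3.3e-05 in that order).

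**Figure D3:**
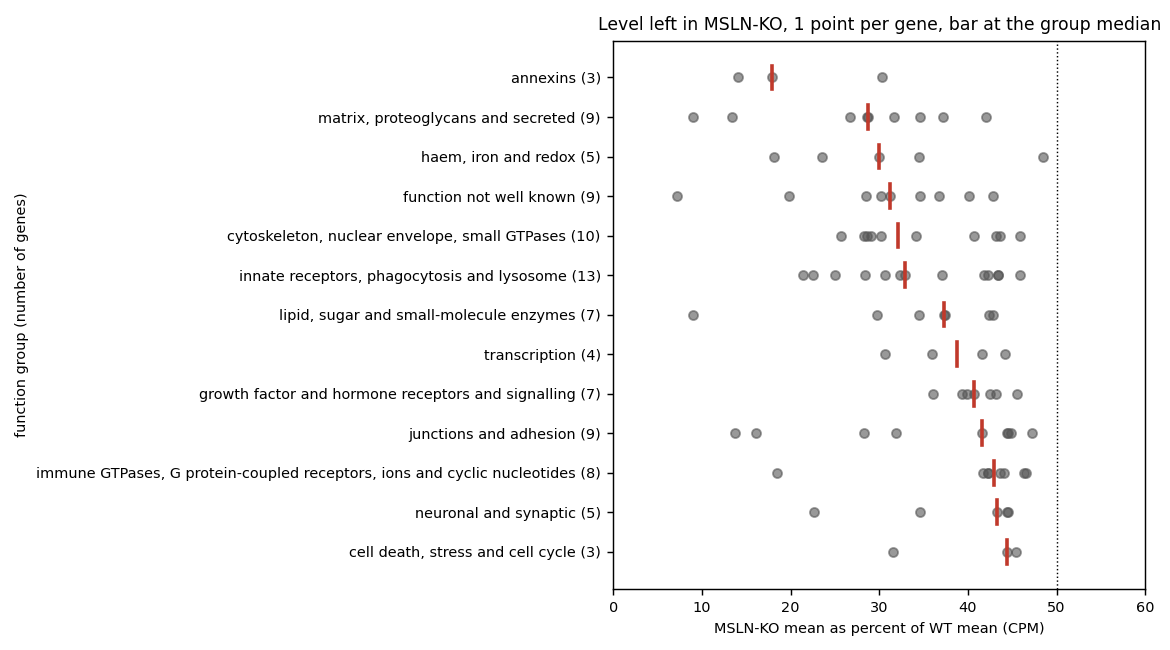
MSLN-KO mean as percent of the WT mean in CPM (x axis) for each of the 92 genes (grey points), by function group (y axis, number of genes in parentheses), with a red bar at each group's median. Group medians run from 17.9% in the annexins to 44.4% in cell death, stress and cell cycle, and the dotted line at 50 marks where a mean would be at 1 part in 2 of WT.

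Of the set, 10 genes belong to the cytoskeleton, the nuclear envelope and the small GTPases with their regulators, with between 25.6% and 45.8% (median 32.1%) of the WT mean left in MSLN-KO. SYNE1, nesprin, which ties the nucleus to the cytoskeleton, had 59.2, 69.9 and 60.9 CPM in MSLN-KO libraries, against 192, 268 and 281 CPM in WT libraries. TUBA1A, an alpha-tubulin, had 240.2, 249 and 208 CPM in MSLN-KO libraries, against 479, 484 and 558 CPM in WT libraries. SYNE1 had 1 WT library, replicate 1, well below the other 2, and TUBA1A had 1, replicate 3, above the other 2. ABLIM1, an actin-binding protein with LIM domains, had 7.03, 8.74 and 10.3 CPM in MSLN-KO libraries, against 31.5, 30 and 29.6 CPM in WT libraries. RAI14, an ankyrin-repeat protein of actin bundles, had 12.9, 13.7 and 10.6 CPM in MSLN-KO libraries, against 42.3, 46.3 and 34.8 CPM in WT libraries. The shares left were 25.6% for SYNE1, 28.6% for ABLIM1 and 30.2% for RAI14. TUBA1A shares long stretches with other alpha-tubulin genes, and its overlapping neighbour TUBA1C was at 76.2% of WT, so its reads could be split with theirs. ARHGAP10 and ARHGAP31 are GTPase-activating proteins. ARHGAP10 averaged 3.73 ± 0.268 CPM in MSLN-KO and 12.9 ± 0.393 CPM in WT libraries (SD, n = 3 each), and ARHGAP31 averaged 14.1 ± 0.185 CPM in MSLN-KO and 32.3 ± 1.5 CPM in WT libraries. FEZ1, an adaptor of kinesin transport, kept 28.2%, CNN3, a calponin, 34.1%, MAP7, which binds microtubules, 40.7%, and RAB13, a GTPase of junction traffic, 43.2% of the WT mean.

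Of 55 other listed RAB, ARF and RAS family genes, 16 were called lower and 19 higher, with a median log2 change of -0.04, and among them RASSF8 rose by 1.19 on the log2 scale, RASA4 rose by 1.14 and RASGRF2 fell by 0.97 (limma adjusted p = 8.2e-06, 1.6e-05 and 2.6e-05 in that order). Of 35 other genes of microtubules, intermediate filaments and septins, 15 were called lower and 4 higher, with a median of -0.12. KIF21B, a kinesin, rose by 1.08, while SEPTIN5 fell by 0.79 and DES, desmin, fell by 0.64 (limma adjusted p = 1.8e-08, 2.7e-05 and 3.7e-06 in that order). In these lists the genes of the set stood beside others that rose. The shares over all listed genes were 23.3% lower and 22.4% higher.

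Another 5 genes are known from neurons and synapses, with between 22.6% and 44.5% (median 43.3%) of the WT mean left in MSLN-KO. TSPOAP1, a RIM-binding protein of presynaptic sites, had 25.1, 24.6 and 24.2 CPM in MSLN-KO libraries, against 117, 99.2 and 111 CPM in WT libraries. GPM6B, a membrane proteolipid, had 5.48, 4.93 and 6.94 CPM in MSLN-KO libraries, against 17.7, 16.8 and 15.6 CPM in WT libraries. TSPOAP1 had by far the smallest share of the 5, 22.6%, beside 34.6% for GPM6B. PENK, the precursor of the enkephalin opioids, averaged 11 ± 1.51 CPM in MSLN-KO and 25.4 ± 3.58 CPM in WT libraries (SD, n = 3 each). DLGAP1, a scaffold of postsynaptic sites, kept 44.5% and CALN1, a calcium-binding calneuron, 44.4% of the WT mean. Of 22 other listed synaptic and neuronal genes, 8 were called lower and 5 higher, with a median of -0.04. The shares over all listed genes were 23.3% lower and 22.4% higher. HOMER2, a postsynaptic scaffold encoded on chromosome 15, fell by 1.54, STX1A, a syntaxin of vesicle fusion, rose by 0.90, and MARCKS, a membrane substrate of protein kinase C, fell by 0.63 (limma adjusted p = 2.7e-09, 1.2e-05 and 6.8e-06 in that order).

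Of the set, 4 genes act in transcription, with between 30.6% and 44.2% (median 38.8%) of the WT mean left in MSLN-KO. HIVEP2, a zinc finger factor that binds NF-kB-like sites, had 3.26, 3.05 and 3.02 CPM in MSLN-KO libraries, against 9.02, 11.3 and 10.1 CPM in WT libraries. GLI2, an effector of Hedgehog signals, had 4.16, 5.01 and 4.71 CPM in MSLN-KO libraries, against 12.5, 12.4 and 13.7 CPM in WT libraries. For both factors the gap between the groups was wider than the range within either. ELL2, an elongation factor of RNA polymerase II, averaged 28.1 ± 1.77 CPM in MSLN-KO and 63.5 ± 5.54 CPM in WT libraries (SD, n = 3 each). BHLHE22, a neural helix-loop-helix factor, averaged 6.20 ± 0.559 CPM in MSLN-KO and 14.9 ± 0.582 CPM in WT libraries. A further 3 act in stress, cell death or the cell cycle, with between 31.5% and 45.4% (median 44.4%) of the WT mean left. CDC14B, a phosphatase of the end of mitosis and of DNA repair, had 10.4, 11.9 and 9.58 CPM in MSLN-KO libraries, against 29.6, 33.5 and 38 CPM in WT libraries. SESN3, a sestrin that restrains mTOR under stress, had 62.1, 66.1 and 68 CPM in MSLN-KO libraries, against 136, 151.3 and 154 CPM in WT libraries. In both genes WT replicate 1 was the lowest and replicate 3 the highest of the WT libraries. MLKL, which breaks the membrane in necroptosis, averaged 10.1 ± 1.02 CPM in MSLN-KO and 22.2 ± 4.36 CPM in WT libraries.

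For 9 genes no well-established role is known, with between 7.15% and 42.9% (median 31.2%) of the WT mean left in MSLN-KO. FAM163A had the smallest share of the whole set, with 0.621, 0.490 and 0.283 CPM in MSLN-KO libraries, against 5.96, 6.42 and 7.12 CPM in WT libraries. TMEM45A, a membrane protein, had 1.98, 2.56 and 1.76 CPM in MSLN-KO libraries, against 11.2, 11.8 and 8.93 CPM in WT libraries. FAM163A was under 1 CPM in every MSLN-KO library. PARM1, a mucin-like membrane protein, had 46.7, 52.2 and 43.9 CPM in MSLN-KO libraries, against 145, 172 and 185 CPM in WT libraries. GASK1B, a Golgi-associated kinase homologue, had 12.4, 10.1 and 11.7 CPM in MSLN-KO libraries, against 38.4, 38.4 and 36.6 CPM in WT libraries. CHCHD7, a small mitochondrial protein with a coiled-coil-helix motif, had 62.2, 62.6 and 63.3 CPM in MSLN-KO libraries, against 168, 150.5 and 194 CPM in WT libraries. CHCHD7 varied by little among MSLN-KO libraries and more among WT libraries, where replicate 3 was the highest. CERNA2, a long intergenic RNA, kept 31.2%, C1orf115 34.6%, MANSC1, a membrane protein with a MANSC domain, 40.1% and the pseudogene ENSG00000265798 42.9% of the WT mean.

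The genes lay on all chromosomes considered except chromosome 20. The most genes lay on chromosome 12, with 11 of 592 eligible listed genes. Chromosome 1 had 8 of 1085 (0.74%) and chromosome 10 had 8 of 391 (2.05%). By share chromosome 13 was highest, with 5 of 188 (2.66%). Chromosome 20 held 291 such genes, and chromosome 19 had 1 of 628. In GENCODE v29 the median span of the genes was 49.3 kb, beside 32.3 kb over the 10294 eligible listed genes. Eligible genes have a position outside chromosomes 15 and Y and none of the symbols that the rule drops. Of the set 34.8% spanned 100 kb or more, beside 18.3% of the eligible genes. Of the 92, 89 are protein coding. Within 500 kb of each other lay 6 pairs, 12 genes in all. Besides the overlaps named with their genes, DSE overlaps TSPYL1, which was at 82.7% of WT, FEZ1 overlaps EI24 at 77.2% and STT3A at 104%, and the pseudogene ENSG00000265798 overlaps ENSG00000266865 at 70.2%. In all 9 genes of the set overlap another listed gene.

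In 4 of these pairs no other listed gene lay between. GIMAP4 and GIMAP6 are 51.4 kb apart on chromosome 7, and beside them GIMAP2, of the same family, was called higher at 125% of WT (log2 change 0.28, limma adjusted p = 0.0362). BHLHE22 and CYP7B1 are 4.14 kb apart on chromosome 8 and differ widely, with 41.6% and 9.0% of the WT mean left. The listed gene ENSG00000254006, 2.48 kb beyond CYP7B1, was at 46.9% of WT and just missed the ratio. CERNA2 and CDHR1 are 22.5 kb apart on chromosome 10, and the listed genes on either side, GHITM and CCSER2, had log2 changes of -0.02 and 0.02 and were not called. CHCHD7 and PENK are 218 kb apart on chromosome 8, and PLAG1, a zinc finger factor that lies 0.362 kb from CHCHD7, was called lower with a log2 change of -0.81. In the other pairs the genes between went less far or were not called. Between C3AR1 and CLEC4A, 57.2 kb apart on chromosome 12, NECAP1 had a log2 change of -0.12 and was not called. Between RAI14 and PRLR, 216 kb apart on chromosome 5, RAD1 and BRIX1 were called lower by 0.22 and 0.35 on the log2 scale, and DNAJC21 was not called at 0.03.

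**Figure D4:**
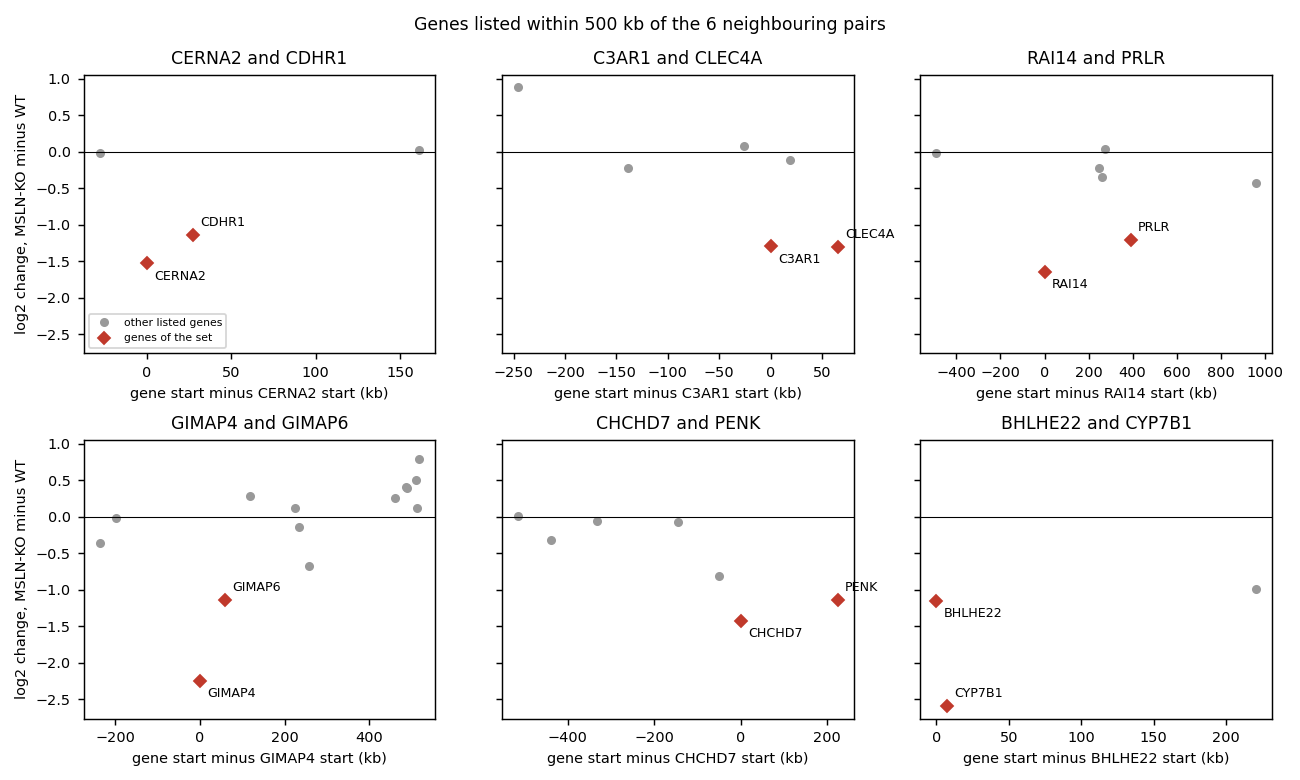
Log2 change of CPM plus 1, MSLN-KO minus WT (y axis), of listed genes within 500 kb of each of the 6 neighbouring pairs, against the distance of their starts from the start of the first gene in kb (x axis), with red diamonds for the genes of the set and grey circles for other listed genes. GIMAP4 and GIMAP6 lie below the line at 0 beside GIMAP2 above it, and no listed gene lies between CERNA2 and CDHR1.

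Some genes of the set sit beside lower genes that were dropped by symbol. GJB6 is 29 kb from GJB2, which averaged 3.61 ± 0.504 CPM in MSLN-KO and 30.4 ± 0.818 CPM in WT libraries (SD, n = 3 each) and was at 11.9% of WT. The sister connexins thus kept 13.8% and 11.9%. TSPOAP1 is 20.3 kb from MPO, the granule enzyme myeloperoxidase, which was at 6.14% of WT, while LPO, the related lactoperoxidase 32.7 kb away, was called higher at 229.6% of WT. TSPOAP1 overlaps its antisense gene TSPOAP1-AS1, which was at 90.6% of WT and not called, and without the strand setting their reads cannot be told apart. GPRASP2 is 2.96 kb from its relative GPRASP3, which was at 48.4% of WT and just missed the ratio. Among the 544 other listed genes within 500 kb of the set, 26.5% were called lower and 19.1% higher, with a median log2 change of -0.02, beside 23.3% and 22.4% and a median of 0.01 over all listed genes. Most of these neighbours were not called lower.

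Within the groups the WT libraries of the set were not alike. WT replicate 1 was the lowest of the 3 in 57 of the 92 genes, 62.0%, beside 33.7% of all listed genes. WT replicate 3 was the highest in 51 genes, 55.4%, beside 29.6% of all. The WT means chose the set, so the choice itself bears on these counts, and its part was not tested. The set counted 85 genes without WT replicate 3 and 109 without WT replicate 1. The median gene of the set was at 94.1% of its WT mean in WT replicate 1, at 100.2% in replicate 2 and at 106% in replicate 3. In MSLN-KO the medians were 99.5%, 101% and 99.5% of the MSLN-KO mean in replicates 1, 2 and 3. Over all listed genes each library's median lay within 99.8% to 100.4% of its group mean. Of the 13 innate and lysosomal genes, WT replicate 1 was the lowest in 10 and WT replicate 3 the highest in 10. Of the 9 junction and adhesion genes WT replicate 1 was the lowest in 3 and the highest in 4. MSLN ran the other way among the WT libraries, with its highest value in replicate 1. The median coefficient of variation of the set was 9.15% in MSLN-KO and 9.75% in WT libraries, beside 5.60% and 6.15% over all listed genes. The set also has lower levels, with a median WT mean of 18.3 CPM beside 35.1 CPM over the eligible listed genes. The spreads were not compared at equal level. No gene of the set moved by over 1.5 times when any 1 library was left out, and what set the WT libraries apart was not tested.

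**Figure D5:**
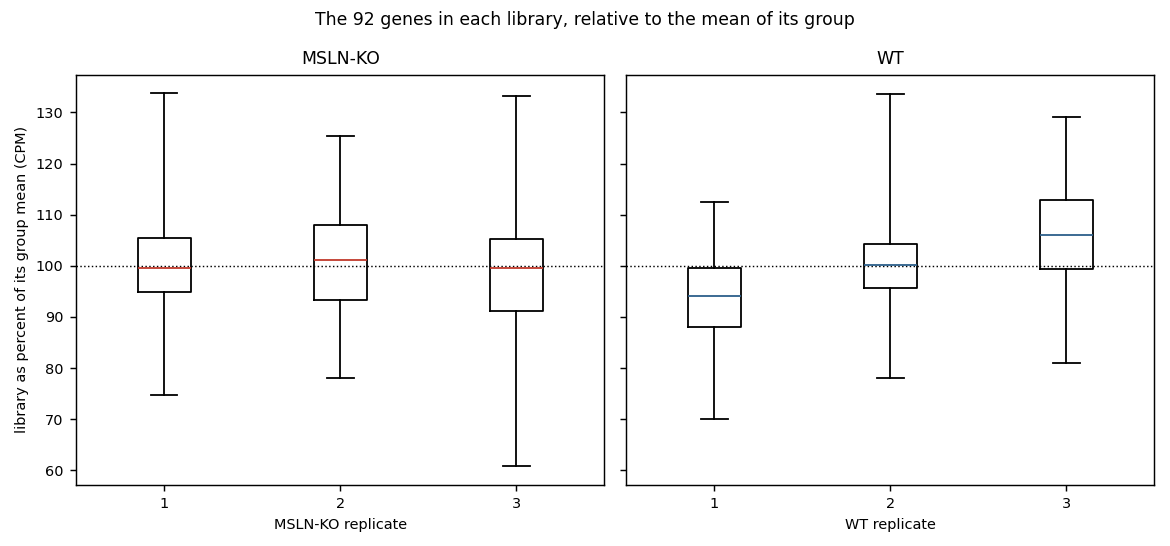
Level of each of the 92 genes in a library as percent of its group mean in CPM (y axis) for the MSLN-KO libraries (left panel) and the WT libraries (right panel), with boxes from the first to the third quartile, lines at the median and whiskers over the whole range. The medians of the WT boxes are 94.1%, 100.2% and 106% in replicates 1, 2 and 3, and those of the MSLN-KO boxes lie between 99.5% and 101%.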

How the data were processed

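Ribosomal RNA was depleted and stranded libraries were made from total RNA, per the labels' protocols. The submitters' processing notes name STAR, featureCounts, edgeR and the build GRCh38/hg38, all without versions, and neither annotation nor strand setting is given in the sources used here. The deposited table holds CPM with TMM scaling by the authors, 1 column per library (totals 967718 to 1009572), of 11363 genes.

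In each column 100% of values were whole multiples, within 0.01, of a common step, and dividing by it gave an estimate of the reads; the table holds too few low values to check that the step is 1 read. Positions came from GENCODE v29 (11314 genes) and symbols from the reference tables (11354 genes). Log2(CPM + 1) of all listed genes was modelled in limma (version 3.58.1, R version 4.3.3, trend, no covariates, Benjamini-Hochberg, two-sided, called at an adjusted p under 0.05), after a check on simulated data. Log2 changes are MSLN-KO minus WT on that scale, which understates low genes, and percentages are ratios of mean CPM. By these estimates libraries of a group differed by more than sampling noise. Promoters came from RefSeq (GRCh38.p14).

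The 92 genes, their function groups (assigned by hand) and the gene lists were chosen with earlier results of these data known. Values of all 6 libraries are given for the 25 genes with the largest ratio, the 15 with the highest WT mean and the top 2 of each group, 41 in all. Lists with 2 or more genes of the set are described, with up to 3 other called genes of widest change each. The results of 1 such list and of 1 named gene are not reported here. Alternatives changed the pseudocount, filter, scaling, threshold, libraries and replicate block.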

Additional observations from a re-analysis of the deposited data

How the results depend on the processing

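The set counted 92 genes as chosen, and 45 with a pseudocount of 5 CPM and 24 with a threshold of 3 in place of 2. With no pseudocount it counted 118, with 0.5 CPM 105, with medians per group 91, with log2 differences 93, with a mean of at least 5 CPM 83 and with columns rescaled to equal totals 88. Leaving out 1 library gave 85 to 109 genes, and 77 of the 92 stayed whichever library was left out. Over all alternatives the level left in MSLN-KO was 5.94% to 51.7% of WT. In all 92 genes every MSLN-KO library was below every WT library. Leaving out a library or taking medians therefore could not bring a gene to the WT mean. That 0 genes reached it is no check of the set. Over all listed genes 2652 were called lower and 2545 higher by limma, and 2278 lower and 2942 higher after rescaling; leaving out 1 library gave 2139 to 2628 lower and 1947 to 2486 higher. Of the list genes outside the set, 129 were called lower and 94 higher, with 109 to 121 and 80 to 97 without 1 library. Whether replicate numbers pair the samples is not in the labels, and the main fit used no pairing. Same-numbered deviations correlated at 0.19, -0.17 and -0.09, and unlike-numbered ones at -0.25 to 0.30, which does not settle it. A fit with the replicate number as a block called 2533 lower and 2413 higher, and 122 and 93 of the list genes. All 465 recomputed log2 changes of named list genes kept direction and call. Of the iron-handling genes 1 was called higher after rescaling, without the variance trend and without WT replicate 2. A count test on recovered reads was planned and not run, since the filtered table holds too few low values to check the step. Genes with few MSLN-KO reads have the least precise shares.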
